A study of Mus musculus with 7 samples.

Results

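The OAS family was measured in cells labelled as microglia from the mouse dorsal hippocampus. It comprised the 8 genes Oas1a, Oas1b, Oas1c, Oas1g, Oas2, Oas3, Oasl1 and Oasl2, picked by symbol from the 55401 gene identifiers of the count table, and all 8 passed the filter on low counts together with 19199 genes in all. The libraries came from C57BL/6 mice labelled male and aged 6 to 8 weeks. Every mouse carried AAV-RAM-Cre, a virus that expresses Cre recombinase in recently active neurons, in the dorsal part of the dentate gyrus. The 4 EYFP libraries came from mice that also received the Cre-dependent virus AAV-Dio-EYFP, which encodes a fluorescent protein. The 3 ATG7 libraries came from mice given AAV-Dio-Atg7-Flag instead, which encodes a tagged form of a protein needed for autophagy. Both viruses act in the neurons, whereas the RNA came from cells pulled down with CD11b beads. The comparison therefore asks how this pulldown, labelled as microglia, differs when neighbouring engram neurons overexpress Atg7. The labels do not say whether a library is 1 mouse or a pool, so p-values here measure the spread between these libraries.

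OAS proteins are sensors of double-stranded RNA, the form of RNA that many viruses make while they copy themselves. When they bind it, the active members join ATP into short chains of adenosine with 2-5 bonds, called 2-5A, and 2-5A sets off the breakdown of RNA throughout the cell. Their genes are classical targets of interferon, acting through a complex with STAT2 and IRF9 that binds the interferon-stimulated response element (ISRE). Resident microglia express them at a low resting level and raise them when interferon signals in the brain.

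All 8 genes lie on chromosome 5 (GRCm38, GENCODE M21). Oasl2 (114896936 to 114912234) and Oasl1 (114923240 to 114937915) are adjacent. Oas2 (120730333 to 120749853), Oas3 (120753098 to 120777661), Oas1c (120800194 to 120812514), Oas1b (120812635 to 120824163), Oas1g (120876142 to 120887613) and Oas1a (120896256 to 120907521) form a second cluster 5.79 Mb further along. The annotation lists Oas1b as a polymorphic pseudogene and the other 7 members as protein-coding. Laboratory strains such as C57BL/6 are known to carry a premature stop in Oas1b, the gene behind flavivirus resistance in wild mice.

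RefSeq promoters (GRCm38.p6, 250 bases before to 50 after the start) were at hand for 6 of the 8 members. Oas1b and Oas2 had no entry. The ISRE core searched, on both strands, was GAAA, then 2 bases of any kind, then GAAA again, which reads TTTC, 2 bases and TTTC on the other strand. It was found in 4 of these 6 promoters, and in 3.44% of all 32851 promoters of the same length. The windows are shown because they let a reader compare the letters upstream of genes that differ in their change, and capitals mark the core, with overlapping matches run together.
Oas1a: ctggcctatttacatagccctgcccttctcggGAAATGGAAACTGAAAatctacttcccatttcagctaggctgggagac
Oas1g: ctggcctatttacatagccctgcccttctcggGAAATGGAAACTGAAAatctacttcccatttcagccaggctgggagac
Oas3: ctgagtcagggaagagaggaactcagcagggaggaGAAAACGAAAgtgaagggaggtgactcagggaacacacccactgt
Oas1c: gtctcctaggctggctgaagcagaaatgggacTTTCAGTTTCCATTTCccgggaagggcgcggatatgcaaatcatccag
All 4 are read 5′ to 3′ on the minus strand, at chr5:120907498-120907577, chr5:120887584-120887663, chr5:120777690-120777769 and chr5:120812581-120812660. The windows of Oas1a and Oas1g are identical at 79 of 80 bases, and their cores begin 20 and 18 bases before the start. The core of Oas3 begins 75 bases before the start. In Oas1c the core faces away from the gene, and its paired match ends 7 bases before the annotated start of Oas1b, which is transcribed in the opposite direction from a start 121 bases from that of Oas1c. No match was present in the windows of Oasl1 and Oasl2, which says only that these letters are not there. The GAS motif TTCNNNGAA, which reads the same on both strands, was present in the promoter of Oas1a alone among the 6, and in 8.30% of all promoters.

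Library totals ran from 35934210 to 55217119 counts, and values below are CPM, counts divided by the library's size after correction by trimmed means of M values (TMM). Atg7 itself, whose transgene was aimed at neurons, had a mean of 35.6 CPM over the EYFP libraries (SD 1.68, n = 4) and 34.9 CPM over the ATG7 libraries (SD 2.76, n = 3). The library labelled EYFP 3 had 938.5 CPM of Xist, against at most 0.574 CPM elsewhere, which goes against its male label. Its Y-linked genes (Ddx3y, Uty, Kdm5d, Eif2s3y) were low but not absent, at 17.3% to 21.7% of the mean of the other EYFP libraries. Whether this library mixes male and female RNA was not tested. EYFP 3 also had the lowest value of all 8 members among the EYFP libraries, so each member's fold change is given with and without it. Microglial markers (7 of 7 detected) summed to between 19701 and 23991 CPM in EYFP and 19521 and 23987 CPM in ATG7. Choroid plexus markers summed to more, from 54692 to 72148 CPM in EYFP and from 46312 to 61023 CPM in ATG7, with 0 of 7 at a positive fold change. Most of that sum was Ttr (means of 38948 CPM in EYFP and 34808 CPM in ATG7) and Enpp2 (19860 and 16449 CPM). The sums of these unlike lists therefore do not rank the cell types by their RNA. In bulk RNA, fewer cells of a type and less RNA per cell cannot be told apart. Nor can the counts of the OAS members be assigned to a cell type.

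The test called 1 of the 8 members, Oas3, as higher in ATG7, by the quasi-likelihood test of edgeR with a Benjamini-Hochberg threshold of 0.05. Of all genes tested, 0.755% were called in either direction and 0.688% as higher. In each of the 8 members all ATG7 libraries were above all EYFP libraries, a pattern shown by 6.33% of all genes tested. Of the members, 7 had an unadjusted p under 0.05 and were higher, against 6.27% of all genes (edgeR quasi-likelihood test). Their median log2 fold change was 1.499, and that of all genes tested was -0.00365. The number called turned on which libraries entered the edgeR fit. It was 0 of 8 without EYFP 2, EYFP 4, ATG7 2 or ATG7 3, where 0.452%, 0.142%, 0.134% and 0.138% of all genes were called as higher. It was 1 of 8, Oas3, without ATG7 1 (0.685% of all genes). It was 4 of 8 without EYFP 1, at 1.1% of all genes, these being Oas1a, Oas1b, Oas2 and Oas3, and 6 of 8 without EYFP 3, at 0.749%. With other tests on all 7 libraries it was 7 of 8 by the DESeq2 Wald test. There 2.39% of the 16962 genes that were given an adjusted p were called as higher. By limma-voom with a quality weight for each library it was 6 of 8, at 1.03% of all genes. That fit changes both the test and the weight of the libraries. With a filter at a mean of 1 CPM it was 2 of 8, Oas1a and Oas3 (0.917% of all genes), and with no filter 1 of 8, Oas1b in place of Oas3 (0.709%).

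**Figure D1:**
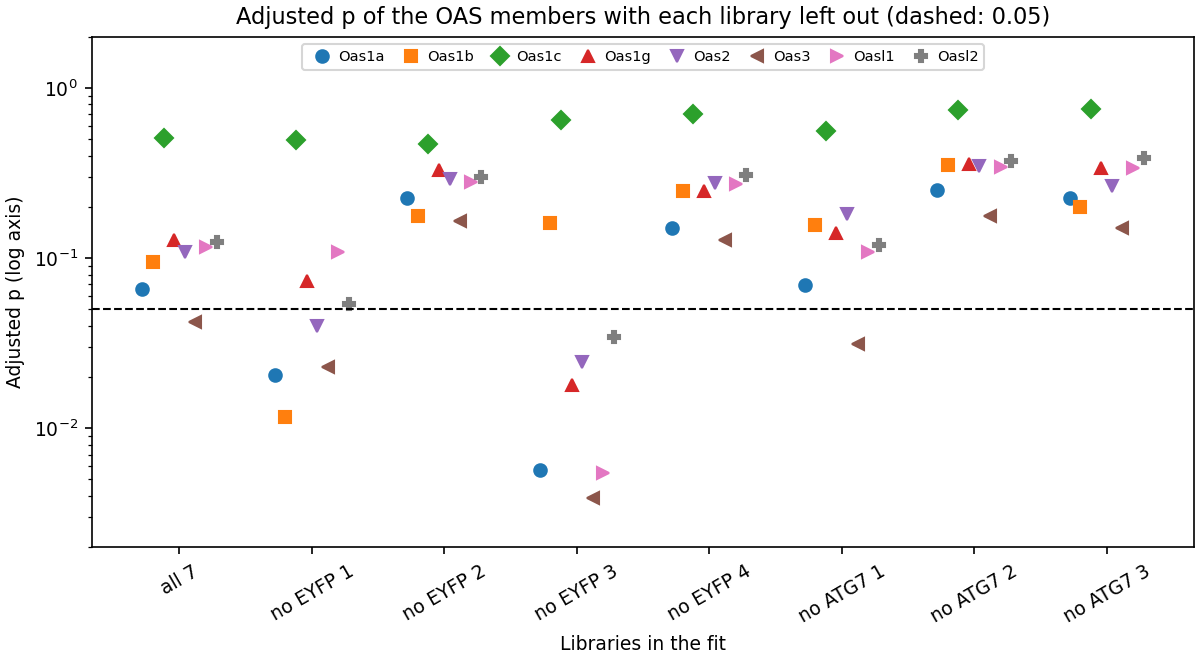
Adjusted p (log axis, edgeR quasi-likelihood test over all genes) of the 8 OAS members with all 7 libraries and with each library left out in turn; the dashed line is at 0.05. Leaving out EYFP 3 puts 6 members under the line and leaving out EYFP 1 puts 4 there, while leaving out EYFP 2, EYFP 4, ATG7 2 or ATG7 3 leaves none.

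The member that passed with all 7 libraries was Oas3, the long form of the enzyme. It stood at 9.59, 6.93, 3.19 and 6.36 CPM in EYFP 1 to 4 and at 20.9, 34.9 and 33.3 CPM in ATG7 1 to 3. The lowest ATG7 library was well above the highest EYFP library, and EYFP 3 was the lowest of all. Oas3 rose 4.58-fold, which is 2.20 ± 0.341 (SE) on the log2 scale (adjusted p by edgeR = 0.0420, from the quasi-likelihood test, Benjamini-Hochberg over all genes). Without EYFP 3 the log2 fold change of Oas3 was 1.96 ± 0.212 (SE; adjusted p by edgeR = 0.00388), so the fold was smaller and the error too. The call was lost when EYFP 2, EYFP 4, ATG7 2 or ATG7 3 was left out, with adjusted p by edgeR of 0.166, 0.127, 0.177 and 0.151.

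**Figure D2:**
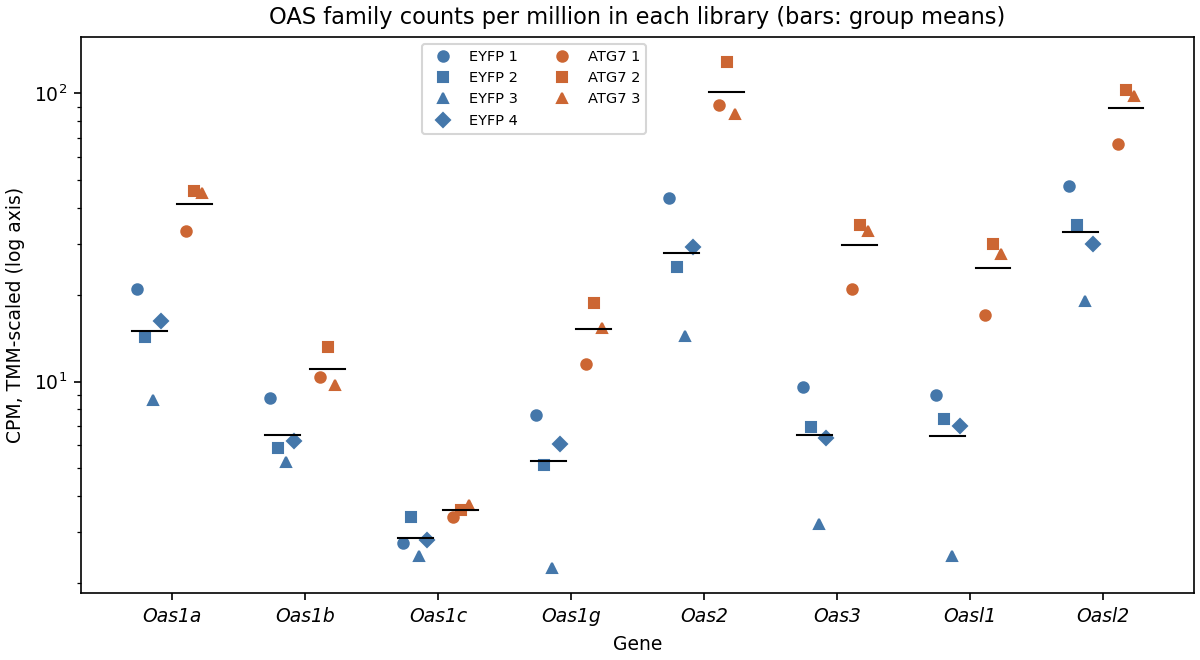
TMM-scaled CPM of the 8 OAS members (log axis) in each of the 7 libraries, with horizontal bars at the group means. For every member the 3 ATG7 libraries lie above the 4 EYFP libraries, by a wide margin for Oas3 and a narrow one for Oas1c, and EYFP 3 is the lowest point of each gene.

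Oas2, the medium form with a paired OAS unit, had the highest mean CPM of the members in ATG7. It had 43.4, 25.1, 14.4 and 29.3 CPM in EYFP 1 to 4 and 90.9, 128.5 and 85.0 CPM in ATG7 1 to 3. The groups were separate, and ATG7 2 was the highest library. The fitted difference of Oas2 was 1.86 on the log2 scale, with a 95% interval from 0.99 to 2.73 (adjusted p by edgeR = 0.108). With EYFP 3 left out it was 1.64 and passed (adjusted p by edgeR = 0.0245).

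Oas1a, an active short form of the enzyme, had 20.9, 14.3, 8.65 and 16.3 CPM in EYFP 1 to 4. In ATG7 1 to 3 it had 33.4, 46.0 and 44.97 CPM, above every EYFP library. Its log2 fold change was 1.47 ± 0.265 (SE; adjusted p by edgeR = 0.0658), and without EYFP 3 it was 1.27 (adjusted p by edgeR = 0.00572). Oas1g, its near twin and also an active enzyme, had 7.68, 5.15, 2.26 and 6.09 CPM in EYFP 1 to 4 and 11.5, 18.7 and 15.4 CPM in ATG7 1 to 3. The order of the libraries matched that of Oas1a, with ATG7 2 at the top and EYFP 3 at the bottom. Its log2 fold change was 1.53 ± 0.352 (SE; adjusted p by edgeR = 0.127), and 1.27 without EYFP 3 (adjusted p by edgeR = 0.0180).

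The pair Oas1a and Oas1g share sequence, so their separate values are uncertain. Of the 100-base stretches in their GENCODE M21 transcripts, 40.9% of those of Oas1a and 31.3% of those of Oas1g occur in the other gene, and the handling of shared reads is not given in the sources used here. Summed, the pair had a mean of 20.3 CPM over the EYFP libraries (SD 7.33, n = 4) and 56.6 CPM over the ATG7 libraries (SD 10.4, n = 3), a ratio of 2.79. That ratio lies between those of the separate genes, 2.76 for Oas1a and 2.87 for Oas1g. The other 6 members shared no such stretch with any annotated transcript of another gene.

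Oasl1 and Oasl2 carry ubiquitin-like domains that the other members lack. Oasl1 is known to restrain translation of Irf7, whereas mouse Oasl2 retains enzyme activity. Oasl1 had 8.96, 7.39, 2.48 and 7.02 CPM in EYFP 1 to 4, and 16.96, 29.9 and 27.6 CPM in ATG7 1 to 3. EYFP 3 stood furthest below its group here, and the groups did not overlap. The log2 fold change of Oasl1 was 1.95 ± 0.404 (SE; adjusted p by edgeR = 0.116), and 1.67 without EYFP 3 (adjusted p by edgeR = 0.00546). Oasl2 had 47.6, 35.0, 19.1 and 29.9 CPM in EYFP 1 to 4, and 66.7, 102.7 and 97.7 CPM in ATG7 1 to 3. ATG7 1 was nearest to EYFP 1 but still above it. The log2 fold change of Oasl2 was 1.44 ± 0.304 (SE; adjusted p by edgeR = 0.125), and 1.24 without EYFP 3 (adjusted p by edgeR = 0.0345).

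Oas1b and Oas1c had the smallest differences of the family. Oas1b had 8.74, 5.87, 5.28 and 6.23 CPM in EYFP 1 to 4 and 10.3, 13.2 and 9.72 CPM in ATG7 1 to 3. The gap between EYFP 1 and the lowest ATG7 library was narrow. The log2 fold change of Oas1b was 0.77 with a 95% interval from 0.37 to 1.16 (adjusted p by edgeR = 0.0945), and 0.67 without EYFP 3 (adjusted p by edgeR = 0.161). Oas1c, a relative without known 2-5A synthesis, had 2.76, 3.38, 2.48 and 2.82 CPM in EYFP 1 to 4. In ATG7 1 to 3 it had 3.40, 3.59 and 3.74 CPM, with ATG7 1 only just above EYFP 2. These rest on 101 to 197 counts a library, the fewest of the members. Its log2 fold change was 0.32 with a 95% interval from -0.05 to 0.70 (adjusted p by edgeR = 0.505), and 0.25 without EYFP 3 (adjusted p by edgeR = 0.649). An antisense gene, Gm43069, covers 9.44% of the exonic bases of Oas1c, and a strand setting of the counting is not given in the sources used here.

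The members shared their highest and lowest libraries in most cases, but not one full order. EYFP 1 was the highest EYFP library for 7 of the 8, the exception being Oas1c, against 28.2% of all genes tested. EYFP 3 was the lowest for 8 of 8, against 21.3% of all genes. Among the ATG7 libraries, ATG7 2 was the highest for 7 members, against 34.7% of all genes, and ATG7 1 the lowest for 6, against 35.04%. The exceptions were Oas1c, highest in ATG7 3, and Oas1b and Oas2, lowest in ATG7 3. Summed over the family, the EYFP libraries 1 to 4 had 149.6, 103.04, 57.8 and 104.04 CPM, and the ATG7 libraries 1 to 3 had 254.1, 377.4 and 317.6 CPM. This sum averaged 103.6 CPM over the EYFP libraries (SD 37.5, n = 4) and 316.3 CPM over the ATG7 libraries (SD 61.7, n = 3), a ratio of 3.05, and within EYFP alone it ran from 57.8 to 149.6 CPM.

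**Figure D3:**
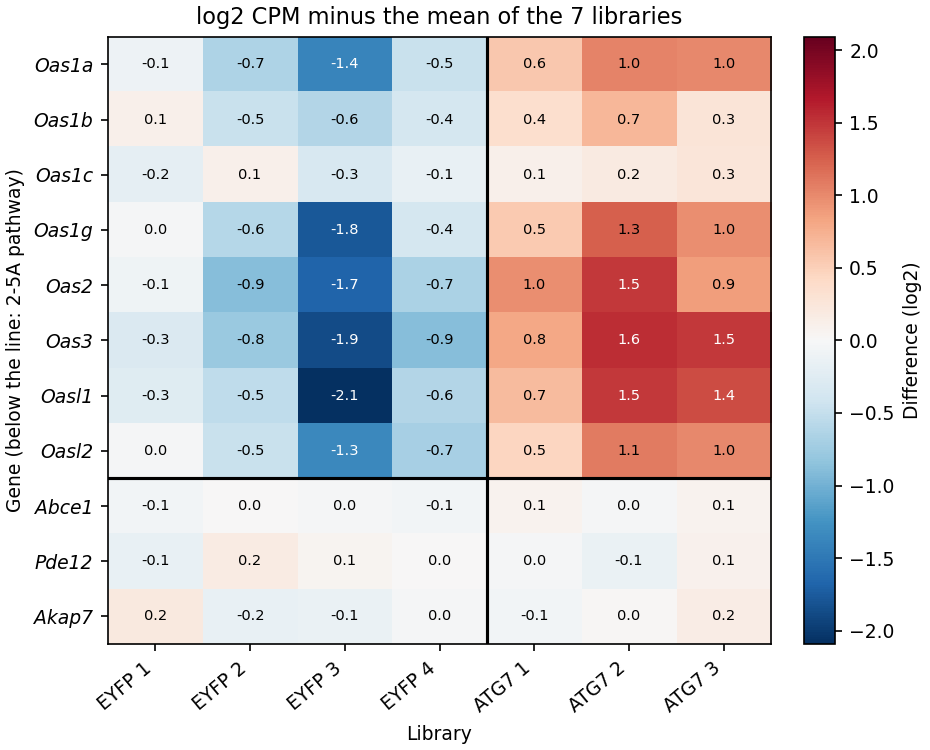
Difference of each gene's log2 CPM from its mean over the 7 libraries, for the 8 OAS members (above the line) and 3 genes of the 2-5A pathway (below it); red is higher and blue lower. The members run from -2.1 for Oasl1 in EYFP 3 to 1.6 for Oas3 in ATG7 2, and the 3 pathway genes vary less. EYFP 1 is nearest to the ATG7 libraries for every member but Oas1c, where EYFP 2 is nearest.

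Levels were compared between members per kilobase of exonic sequence. The places of Oas1a and Oas1g in these orders are uncertain, because the pair shares sequence. Agreement between libraries does not remove that uncertainty, since the sharing is the same in each. In EYFP the order of mean levels was Oas1a (7.97 CPM per kb), Oas2 (6.30), Oasl2 (5.16), Oas1b (3.28), Oasl1 (2.48), Oas1g (2.26), Oas1c (1.19) and Oas3 (0.922). The ranges of neighbours in this order overlapped in every case. Within libraries the order was steadier, since Oas1a was above Oas2, Oas2 above Oasl2, Oasl2 above Oas1b and Oas1b above Oasl1 in 4 of 4 EYFP libraries, and each of the other neighbouring pairs kept its order in 3 of 4. In ATG7 the order was Oas2 (22.8 CPM per kb), Oas1a (22.0), Oasl2 (14.0), Oasl1 (9.52), Oas1g (6.49), Oas1b (5.56), Oas3 (4.199) and Oas1c (1.49). Here the ranges were separate between Oas1a and Oasl2 and between Oas3 and Oas1c. Oas1b made up 11.1% of the family's level per kb in EYFP and 6.46% in ATG7, and Oas2 made up 21.3% and 26.5%.

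Ratios between members within a library do not depend on the scaling. The log2 ratio of Oas3 to Oas1c counts averaged 1.09 over EYFP (SD 0.587, n = 4) and 3.01 over ATG7 (SD 0.351, n = 3), the widest shift of the 28 pairs. That of Oas3 to Oas2 was -2.1002 ± 0.166 (SD, n = 4) and -1.79 ± 0.394 (SD, n = 3), with overlapping libraries. That of Oas1a to Oasl2 moved least, from -1.12 ± 0.175 (SD, n = 4) to -1.09 ± 0.0845 (SD, n = 3). In 17 of the 28 pairs the libraries were separate between groups. Most of these set Oas1b or Oas1c, the members with the smallest differences, against another member. Each member enters several pairs, so the 17 are not independent results. How often pairs of other genes separate in this way was not tested. This comparison of pairs was added after the values of the members were seen, and a two-sided exact permutation p over the 35 ways to split the libraries can be formed by doubling the smaller tail or by counting absolute differences. Both are given, since both were computed. With doubling, the smallest exact permutation p was 0.0571, and 0.0941 after Benjamini-Hochberg adjustment over the 28 pairs. With absolute differences, the smallest exact permutation p was 0.0286, reached by 10 pairs, and 0.0800 after adjustment. By either form 0 of the 28 pairs passed, and doubling cannot go below 0.0571 with 4 against 3 libraries.

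The remaining Oas1 genes were near the limit of detection. Oas1f had 0 counts in every library, which allows up to 0.0543 to 0.0835 CPM (3 counts, counting error only), Oas1d had at most 2 counts, and Oas1e at most 2. Oas1h had 15, 6, 4 and 3 counts in EYFP 1 to 4, while ATG7 1 to 3 had 32, 47 and 34. Its log2 fold change was 2.21 ± 0.503 (SE; adjusted p by edgeR = 0.0853), and it entered the test only through its ATG7 counts.

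**Figure D4:**
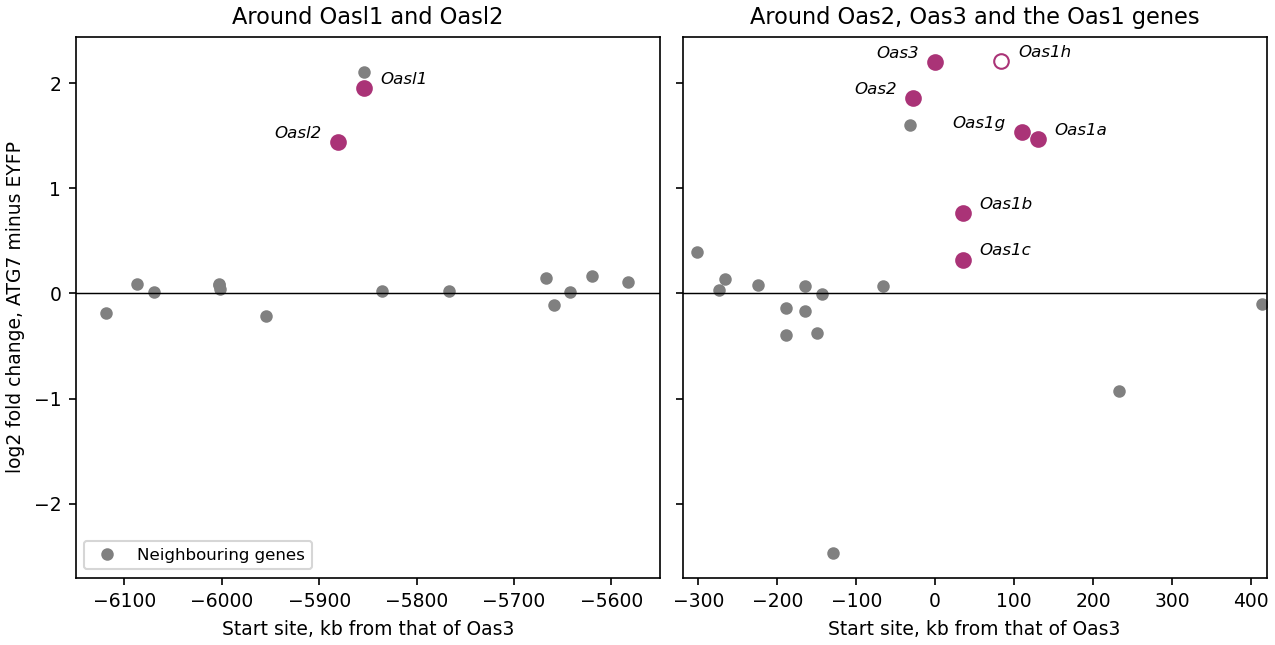
Log2 fold change (ATG7 minus EYFP) of the OAS genes (purple, Oas1h hollow) and of the other tested genes within 250 kb of a member (grey), against the distance in kb of their start sites from that of Oas3. The members reach up to 2.20, while the neighbours other than Oas1h have a median of 0.03 and lie on both sides of 0.

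Of the genes within 250 kb of a member, 31 were tested and 0 passed with edgeR (5 had an unadjusted p under 0.05, where 12% of all genes did, and limma-voom with quality weights called Oas1h). Leaving out Oas1h, the median log2 fold change of the other 30 was 0.03, and 19 of them had a positive value. After Oas1h, the highest values belonged to genes beside members and the lowest to Rasal1. Gm13822, antisense to Oasl1 and overlapping 1.46% of its exonic bases, had 6, 7, 2 and 5 counts in EYFP 1 to 4, while ATG7 1 to 3 had 11, 28 and 36, so it too entered the test only through its ATG7 counts. Its log2 fold change was 2.102 (adjusted p by edgeR = 0.108). Gm43068, within the span of Oas2 on the opposite strand and sharing none of its exonic bases, had 1.60 (adjusted p by edgeR = 0.338). Rasal1, which does not lie beside a member, had 46, 25, 10 and 21 counts in EYFP 1 to 4, while ATG7 1 to 3 had 2, 9 and 5. It entered the test only through its EYFP counts. Its log2 fold change of -2.47 was the other way and did not pass (adjusted p by edgeR = 0.128), and with no filter it was called as lower.

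Of 3 other genes of the 2-5A pathway, 0 passed with edgeR and 0 had an unadjusted p under 0.05. Their median log2 fold change was 0.07, and the libraries of the groups overlapped for each. Among all genes tested, 0.755% passed and 12% had an unadjusted p under 0.05 (edgeR quasi-likelihood test). Abce1, a ribosome recycling factor also known to restrain the 2-5A pathway, had a mean of 102.5 CPM over the EYFP libraries (SD 2.43, n = 4) and 107.5 CPM over the ATG7 libraries (SD 4.47, n = 3). Pde12, a phosphodiesterase that breaks down 2-5A, had a mean of 23.9 CPM over the EYFP libraries (SD 2.24, n = 4) and 23.1 CPM over the ATG7 libraries (SD 1.86, n = 3). Akap7, whose phosphoesterase domain can cleave 2-5A, had a mean of 19.96 CPM over the EYFP libraries (SD 2.33, n = 4) and 20.9 CPM over the ATG7 libraries (SD 1.53, n = 3).

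Of 8 other genes of double-stranded RNA sensing, 5 rose and 0 fell (adjusted p by edgeR under 0.05), with a median log2 fold change of 0.59. Among all genes tested, 0.688% were called as higher. Dhx58, the regulator LGP2, rose by 1.11 ± 0.151 (SE), and Ddx58, the sensor RIG-I, by 0.64 ± 0.102 (SE; adjusted p by edgeR = 0.0118 and 0.0206). Adar, the RNA editing enzyme, rose by 0.61 ± 0.0843 (SE), Eif2ak2, the kinase PKR, by 0.58 and Ifih1, the sensor MDA5, by 0.58 (adjusted p by edgeR = 0.0113, 0.0206 and 0.0206). Zbp1, a sensor that triggers cell death, had a log2 fold change of 1.80 that did not pass (adjusted p by edgeR = 0.107). Mavs, the adaptor of RIG-I and MDA5, had 0.03, and the receptor gene Tlr3 had 0.18 (adjusted p by edgeR = 0.899 and 0.472). Without EYFP 4 or ATG7 3 the number called was 0, without ATG7 2 it was 1, and without EYFP 2 it was 3. In these fits 0.142%, 0.138%, 0.134% and 0.452% of all genes were called as higher, in that order.

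Of 8 genes of interferon signalling, 2 rose and 0 fell, with a median log2 fold change of 0.28. Among all genes tested, 0.688% were called as higher. Stat2, part of the complex that binds the ISRE, rose by 0.93 ± 0.131 (SE; adjusted p by edgeR = 0.0137). Usp18, which removes ISG15 and dampens the receptor, rose by 1.49 ± 0.248 (SE; adjusted p by edgeR = 0.0420). Irf9, another subunit of the complex, had 0.38 (adjusted p by edgeR = 0.0590), and Irf7, the factor whose translation Oasl1 restrains, had 1.56 (adjusted p by edgeR = 0.152). The receptor genes Ifnar1 and Ifnar2 and the kinase genes Jak1 and Tyk2 lay between 0.08 and 0.18, and none of these 4 passed. The number called was 0 without EYFP 2, EYFP 4, ATG7 2 or ATG7 3. In these fits 0.452%, 0.142%, 0.134% and 0.138% of all genes were called as higher, in that order.

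**Figure D5:**
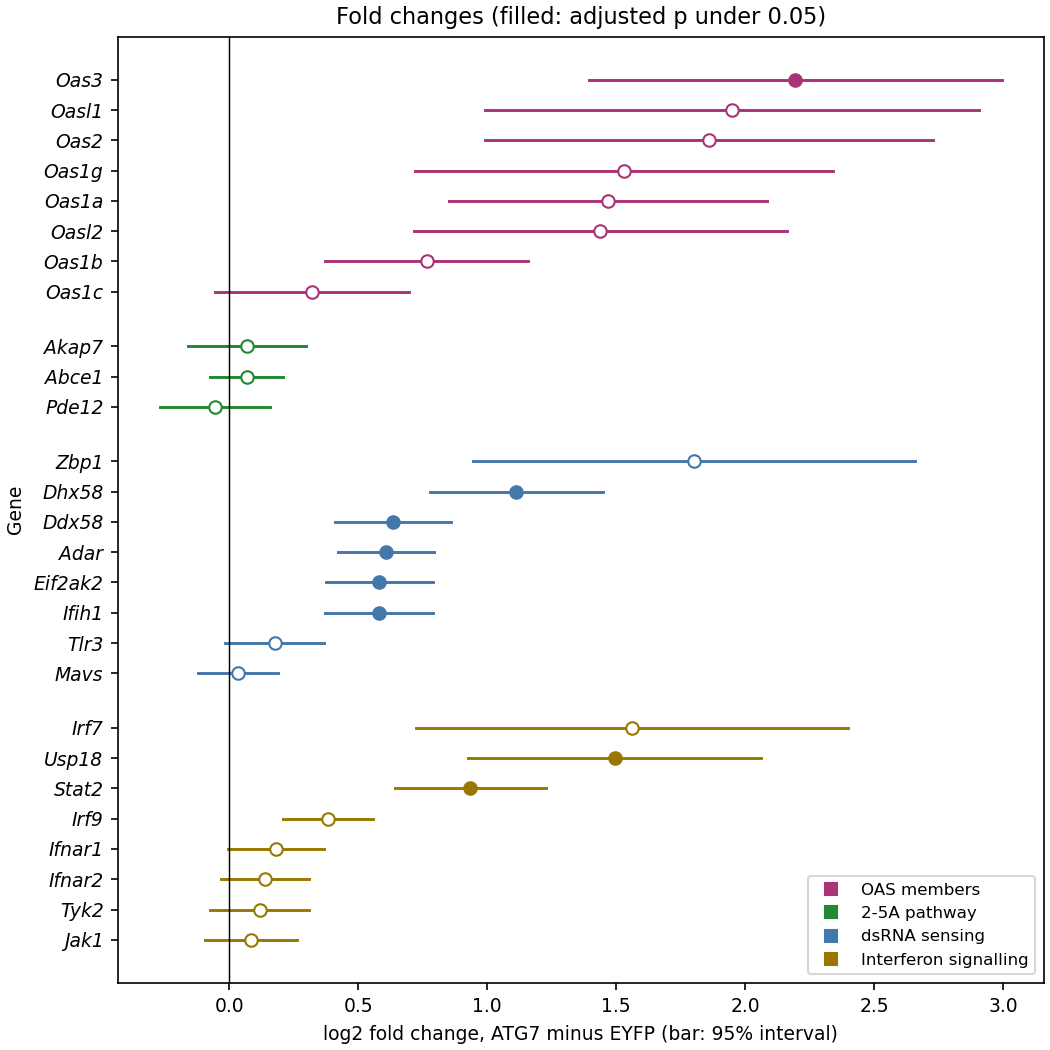
Log2 fold change (ATG7 minus EYFP) with 95% intervals for the OAS members, the 2-5A pathway, double-stranded RNA sensing and interferon signalling; filled points have an adjusted p under 0.05 (edgeR). The intervals of the OAS members are wider than those of the 2-5A pathway genes, and Pde12 at -0.06 is the lowest point.

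The genes whose profile over the 7 libraries lay closest to the mean of the 8 members were sought among 15034 others with a mean of at least 1 CPM, by the root mean square difference of centred log2 CPM. The 5 closest were Ifi204 (0.0567), Ifi209 (0.0608), Ifit2 (0.0997), Usp18 (0.102) and Ifit3 (0.121). Ifi204 and Ifi209 are DNA-binding PYHIN genes on chromosome 1, and Ifit2 and Ifit3, on chromosome 19, encode interferon-induced proteins with tetratricopeptide repeats. Their log2 fold changes ran from 1.34 for Ifit3 to 1.49 for Usp18. On the same measure the members themselves lay between 0.0664 for Oas1a and 0.666 for Oas1c. Ifi204 and Ifi209 were nearer to the family's mean than any single member. They were picked as the closest of 15034 genes, however, while the members were not picked on this measure. Picking on it also favours genes with fold changes near the family's mean.

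Markers of other cells were read beside these values. Lymphocyte markers, 5 of 6 of them tested and 0 called (edgeR), summed to between 1.02 and 3.71 CPM in EYFP and 4.12 and 12.02 CPM in ATG7, so their groups were separate too. ATG7 3 held the most and EYFP 3 the least, and the B cell marker Cd79a was under 1 CPM in every library. No marker of the list was at 0 counts throughout. Their part in the result was not tested. Choroid plexus sums overlapped between groups. With the choroid plexus score as a covariate 0 of 8 members were called, with log2 fold changes from 0.44 to 2.00 and adjusted p by edgeR from 0.397 to 0.620, and 0.026% of all genes were called as higher. Of the 6 blood myeloid markers 0 were called, and their sum overlapped between the groups, but its members differed among themselves. Plac8 was at 4.15, 4.25, 1.80 and 2.70 CPM in EYFP 1 to 4 and at 4.70, 11.4 and 10.3 CPM in ATG7 1 to 3, with a log2 fold change of 1.45 (adjusted p by edgeR = 0.128). Ly6c2 had 1.47 with overlapping groups (adjusted p by edgeR = 0.330), S100a8 had 0.06 and S100a9 had -0.08. The ATG7 libraries were far apart for both S100 genes. In ATG7 1 to 3, S100a8 was at 5.90, 5.39 and 32.2 CPM and S100a9 at 7.97, 11.6 and 55.2 CPM. ATG7 3 was thus above every other library for both. Ccr2 had -0.03, and Ly6g, under 1 CPM in every library, had -0.82. EYFP 3 was the lowest library for Plac8 and Ly6c2, as it was for the members. For S100a8, S100a9 and Ly6g it was instead the highest EYFP library. The part of these cells in the result was not tested. The summed markers of border macrophages, neurons, astrocytes, oligodendrocytes and endothelial and mural cells overlapped between the groups.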

How the data were processed

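The authors deposited raw counts per Ensembl gene identifier, whole numbers with no normalization, in 7 columns. The submitters' processing notes name fastp 0.20.1, HISAT2 2.0.5 and featureCounts, with builds mm10 and GRCm38. The annotation release, strand setting and treatment of shared reads are not given in the sources used here. Columns were matched to libraries by name. Symbols and positions came from GENCODE M21, which matched 55141 of 55401 identifiers.

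The groups were compared over all 7 libraries in edgeR 4.0.16 by its quasi-likelihood test (R 4.3.3; TMM factors, filterByExpr, robust dispersion, no covariate), and p-values were adjusted over 19199 genes with a threshold of 0.05. The SE is the absolute log2 fold change over the square root of F. Log2 CPM used a prior count of 2, and ratios between members added 0.5 counts. Steps were tested on simulated data with changes of 1.5-, 2- and 3-fold. Of the changed genes, 46.2%, 69.4% and 79.3% were recovered. The false share of calls was 7.22%, 8.22% and 11.0%, each above the threshold of 0.05. Alternatives used other scalings, filters, DESeq2 1.42.0, limma 3.58.1, a replicate block, a covariate, and each library left out. The members and lists were chosen with earlier results of these data known. Named were all members and their Oas1 relatives, Atg7, every gene of the pathway lists (some genes are not reported here and were left out of the pathway counts), the 5 closest profiles, and sex-linked genes; of the chromosome 5 neighbours the rule gives Oas1h, and Rasal1, Gm13822, Gm43068 and Gm43069 were chosen after their values or positions were seen.

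Library pairs of a group differed by a chi-square of 19.2 to 41.3 per degree of freedom, so none was a duplicate. At these depths 3 counts are 0.0543 to 0.0835 CPM.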

Additional observations from a re-analysis of the deposited data

Results flagged for a closer look

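Within the 4 EYFP libraries, a library was compared with the nearest of the others for 30 genes, and chance sets about 1 in 20 such groups apart. The count of Oas1h in EYFP 1 was far above the rest of its group, at 0.410 CPM, while EYFP 2 had 0.131, EYFP 3 had 0.0887 and EYFP 4 had 0.0736 CPM. Oas1e in EYFP 2 was set apart at 0.0436 CPM, but this is 2 counts beside 0 in the other EYFP libraries and lies under the floor of 3 counts.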

How the results depend on the processing

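1 alternative, the form of the permutation p over pairs of members, was chosen after seeing the data and left 0 pairs passing. The direction of all 8 members held in each of the 16 others. The number of genes called was 145 (132 higher), but 297 (234 higher) with no filter, 582 (406 higher) with DESeq2, 0 with the replicate block and 7 with the choroid plexus covariate. The number of OAS members called was 1, but 2 with a mean CPM of at least 1, 7 with DESeq2, 6 with limma-voom with quality weights (a change of both test and library weights), and 0 with the block or the covariate. The call with no filter was Oas1b in place of Oas3 (edgeR adjusted p = 0.00973 and 0.139). The 5 double-stranded RNA sensing genes and 2 interferon signalling genes called fell to 0 with the block and with the covariate, and the latter were 4 with DESeq2 and with limma-voom. The chromosome 5 neighbours called were 3 with no filter and 1 with limma-voom. Leaving out each library in turn gave 28 to 277 genes, 0 to 6 members, 0 to 6 sensing genes, 0 to 3 signalling genes, 0 pathway genes and 0 to 1 neighbours. The cause of these shifts was not tested. The labels do not say whether the replicate numbers pair the libraries. Deviations of same-numbered libraries correlated across genes at -0.182 to 0.0664, and those of differently numbered ones at -0.145 to 0.215. With so few libraries these values cannot decide whether the numbers pair them. With the replicate block, which leaves few residual degrees of freedom, the log2 fold change of Oas3 was 2.26 and 0 genes were called. The range of adjusted p of Oas3 over the alternatives was 1.71e-05 to 0.397.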
